A study of Homo sapiens with 6 samples.

Results

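The core autophagy machinery is the set of proteins that builds the autophagosome and fuses it with the lysosome. It was followed here as 41 genes out of 61496 features in the deposited tables. They were chosen by symbol for their known role, with earlier results of these data known. All 41 were found in the count table and in the FPKM table, and all 41 were among the 27514 features that passed the filter on low counts and were tested. The libraries came from U251, an established human glioma cell line, with 3 of untreated cells (control) and 3 of cells exposed to sevoflurane gas (Sev), an inhaled anesthetic, for 2 h. The deposited protocol names concentrations of 1.7%, 3.4% and also 5.1% without tying any of them to a library, and the study's own account of the sequenced cells names the highest of these. No carrier gas control is named in the sources used here, and nothing says of these libraries that those of a group came from separate cultures. The study's methods speak of independent experiments for its quantitative data in general, with no tie to the sequencing, so p-values measure only the spread between these libraries, which may be technical.

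In autophagy, a double membrane grows around cytoplasm and closes into a vesicle that the lysosome digests. The ULK1 kinase complex starts the process, the class III phosphatidylinositol 3-kinase (PI3K) complexes make the lipid mark PI3P, and PI3P-binding proteins together with ATG2 and ATG9 bring in lipid. Ubiquitin-like conjugation then attaches ATG8 proteins (the LC3 and GABARAP families) to the membrane, and SNARE proteins fuse the closed vesicle with the lysosome. In glioma cells, autophagy is known both as a route of survival under stress and as a companion of cell death. Much of its control acts on the proteins, through phosphorylation and lipid conjugation, and transcript levels do not measure that.

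Library totals lay between 38624292 and 46318311 counts, and the first principal component of all tested features, with 69.0% of the variance, separated the groups. The second, with 10.0%, separated Sev 2 from Sev 3. All 7 glioma and astroglial markers were present at 10.1 CPM (read counts scaled to library depth, TMM-normalized) or more in every library, with CD44 called higher and SOX2 and S100B lower in all 15 alternative fits as well, and EGFR called higher with the call held in 4 of 15. Of 11 markers of other cell types, AIF1 was at 0 in all libraries, PTPRC, EPCAM, CDH1 and MOG stayed below 1 CPM, and none passed 6.08 CPM. The summed level of those 11 markers was 12.3 to 16.9 CPM in control and 18.4 to 20.5 CPM in Sev, with MBP called higher (held in 12 of 13 alternatives) and PECAM1 too (held in 4 of 13), and the part of this in the results below was not tested.

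Autophagy genes were called in both directions within initiation, conjugation and fusion. In Sev, 6 of the 41 genes were higher (ATG101, RB1CC1, WIPI2, WDR45B, ATG4D, SNAP29) and 8 were lower (ULK2, PIK3R4, ATG4B, ATG4C, ATG16L2, GABARAPL2, STX17, EPG5), at an adjusted p under 0.05 (quasi-likelihood test of edgeR, Benjamini-Hochberg adjustment over all tested features). These 14 were 34.1% of the members, against 43.7% of all tested features, of which 22.1% were higher and 21.5% lower. Among protein-coding genes with a mean of at least 5 CPM, 47.2% were called. The scaling changed how member calls were split between directions: they were 6 higher and 8 lower with TMM, 8 and 6 with DESeq2's size factors, and 4 and 13 with library size only. They were 4 and 11 by limma on log2(FPKM + 1), which differs in test and filter too and tested 39 of the members. Library size alone moved the median log2 change of all features to −0.15.

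The threshold named in the study's methods asks for a log2 fold change beyond 1 in either direction and a p, not adjusted, under 0.05. It was passed by 4 members: ATG4C, ATG16L2 and STX17 were lower and ATG9B was higher. They made up 9.76% of the members, against 23.5% of all tested features (11.4% higher and 12.0% lower) and 9.22% of protein-coding genes with a mean of at least 5 CPM. The median size of change, without sign, was 0.25 on the log2 scale for the members, 0.51 for all features, 0.41 for protein-coding genes and 0.33 for those with a mean of at least 5 CPM. With sign, the medians were −0.01 for the members and −0.01 for all features. The 3 libraries of one group did not overlap those of the other for 25 of the 41 members (14 higher and 11 lower in Sev), or 61.0%, against 56.5% of all features.

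**Figure D1:**
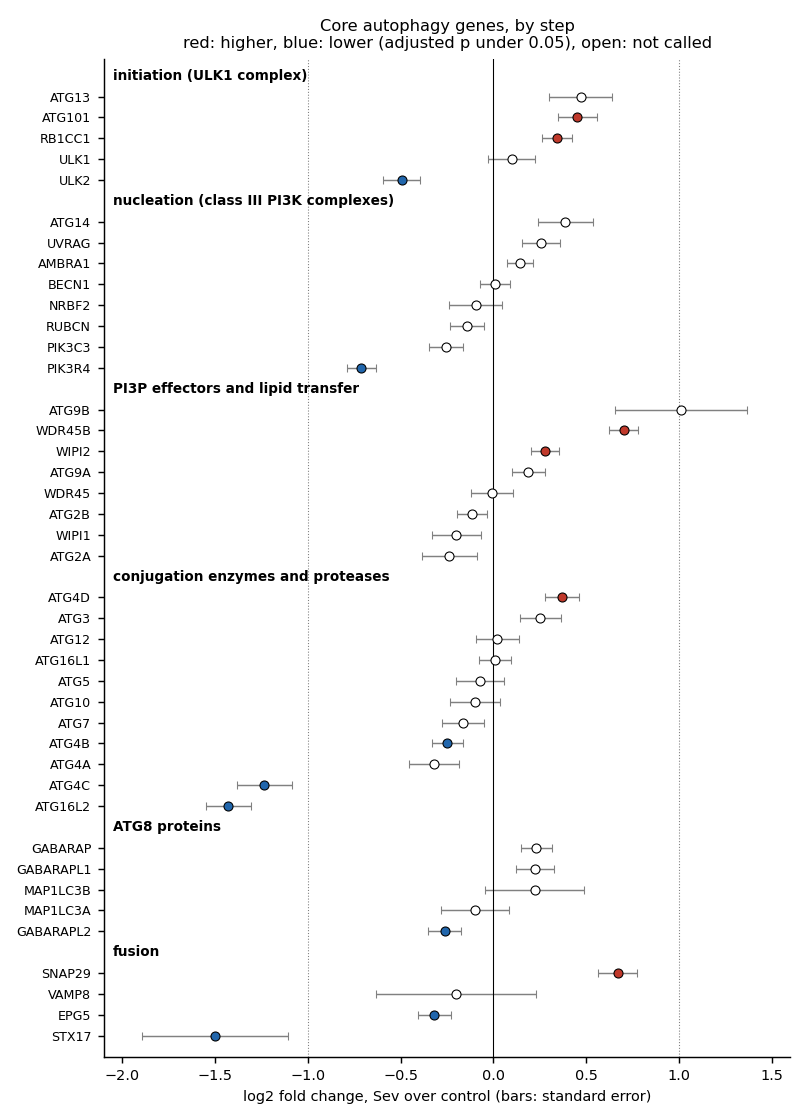
Log2 fold change of each of the 41 genes (Sev over control, from counts), sorted within its step, with bars for the standard error of the fit (n = 3 libraries a group). Filled red and blue points were called higher and lower at an adjusted p under 0.05, open points were not called, and dotted lines mark changes of 1 and −1. Most points sit within 0.5 of zero, and STX17, ATG16L2 and ATG4C stand farthest to the left.

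Initiation rests on the ULK1 complex, which joins a kinase (ULK1 or its paralog ULK2) to ATG13, ATG101 and RB1CC1, also known as FIP200. Of these 5 genes, 2 were called higher, 1 lower and 2 were not called. ULK1 was measured at 57.0, 47.5 and 51.0 normalized CPM in control 1 to 3 and at 50.4, 65.4 and 50.6 in Sev 1 to 3. The groups overlapped, and the log2 fold change was 0.10 ± 0.13 (SE, adjusted p = 0.562 by edgeR). ULK2 (ENSG00000083290, chr17:19770829-19867936, positions here and below on GRCh38) was at 22.6, 23.5 and 25.6 CPM in control and at 17.2, 16.2 and 17.4 in Sev. Every Sev library lay below every control library, with a log2 fold change of −0.50 ± 0.10 (SE, adjusted p = 0.00573 by edgeR), a change of −29.1%.

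Both called partners of the kinases were higher. ATG101, which stabilizes ATG13, was at 20.4, 22.9 and 23.9 CPM in control and at 31.1, 32.5 and 28.1 in Sev, a fold of 1.37 (adjusted p = 0.0108 by edgeR). RB1CC1, the large scaffold that ties the complex to the growing membrane, was at 93.8, 99.6 and 98.5 CPM in control and at 125, 131 and 113 in Sev, a fold of 1.27 (adjusted p = 0.0121 by edgeR). The groups did not overlap for either gene. ATG13, the adaptor between kinase and scaffold, had a fold of 1.39 and did not pass (adjusted p = 0.0542 by edgeR). Its control 1 stood at 66.9 CPM against 104 and 102 in the other two.

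**Figure D2:**
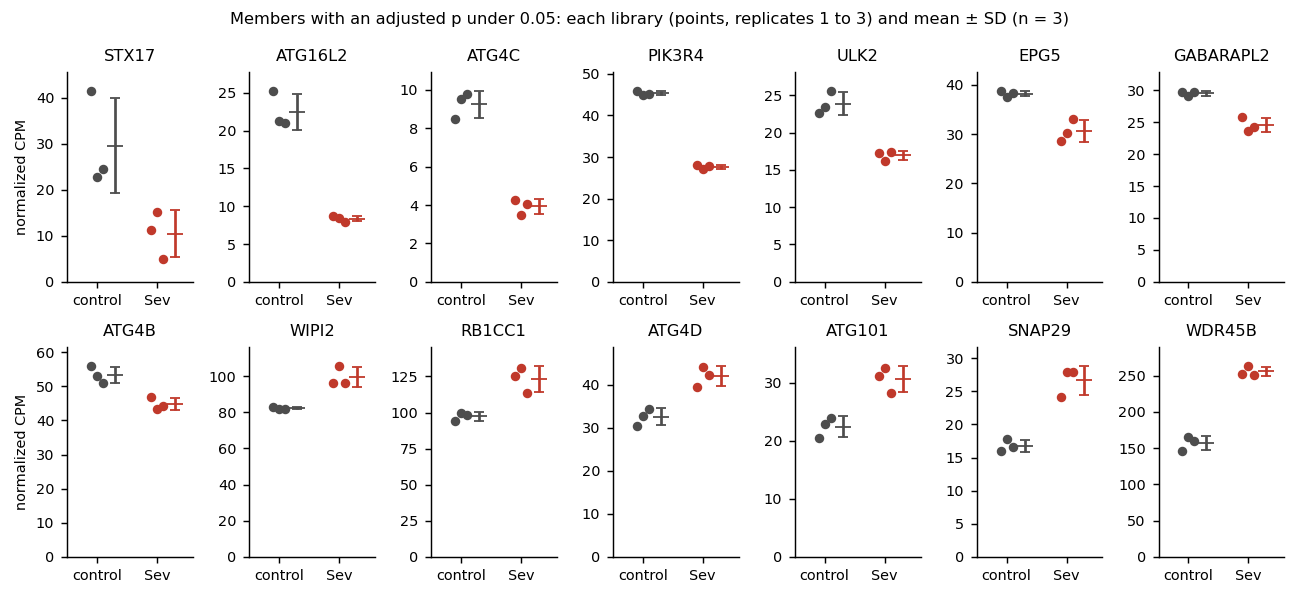
Normalized CPM of the 14 called members in each library (points, replicates 1 to 3 from left to right), with the group mean and SD (n = 3) beside them and each axis starting at 0. The upper row and the first gene of the lower row are lower in Sev, the rest are higher, and in no panel do the groups overlap.

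For nucleation, the class III PI3K complexes hold the catalytic lipid kinase PIK3C3 (VPS34), its regulatory subunit PIK3R4 (VPS15) and BECN1, with ATG14 or UVRAG deciding where they act. Only PIK3R4 of these 8 genes was called, and it was lower. PIK3R4 (ENSG00000196455, chr3:130678935-130746829) was at 45.9, 45.0 and 45.2 CPM in control and at 28.0, 27.1 and 27.9 in Sev. The libraries of each group lay close together and far from the other group, with a log2 fold change of −0.71 ± 0.08 (SE, adjusted p = 0.000476 by edgeR).

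Its partners were not called. PIK3C3 was at 26.6, 28.0 and 30.2 CPM in control and at 24.0, 23.3 and 23.7 in Sev. These groups did not overlap, and the log2 fold change of −0.26 ± 0.09 (SE) missed the limit (adjusted p = 0.0549 by edgeR). BECN1, the scaffold that links the kinase to ATG14 or UVRAG, was at 59.6, 65.6 and 68.1 CPM in control and at 63.9, 65.3 and 65.1 in Sev. That is a log2 fold change of 0.01 ± 0.08 (SE, adjusted p = 0.956 by edgeR), and library size alone as the scaling turned its sign (−0.13). ATG14, which directs the complex to autophagy, had a log2 fold change of 0.39 and UVRAG, which directs it to endosomes and later steps, one of 0.26 (adjusted p = 0.0681 and 0.0746 by edgeR). The activator AMBRA1 (0.14), the accessory subunit NRBF2 (−0.10) and the inhibitor RUBCN (−0.14) were not called.

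In PI3P sensing and lipid transfer, WIPI proteins (WIPI1, WIPI2, WDR45B or WIPI3, WDR45 or WIPI4) read PI3P, ATG2 proteins carry lipid across, and ATG9 proteins move lipid between the membrane's leaflets. Of these 8 genes, 2 were called, both higher. WDR45B (ENSG00000141580, chr17:82614562-82648553) was at 146, 165 and 160 CPM in control and at 253, 263 and 251 in Sev. The groups were far apart, with a log2 fold change of 0.70 ± 0.08 (SE, adjusted p = 0.000453 by edgeR). Per length it was, with GABARAP, one of the most abundant member transcripts, at 37.8 ± 1.64 FPKM in control and 55.7 ± 0.779 FPKM in Sev (SD, n = 3).

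WIPI2, which recruits ATG16L1 to the membrane, was at 82.9, 82.1 and 81.8 CPM in control and at 96.6, 106 and 96.5 in Sev. The groups did not overlap, with a fold of 1.21 (adjusted p = 0.0196 by edgeR), and the call was lost without control 2 or without control 3, where the adjusted p was at most 0.0791. ATG9A, the broadly expressed scramblase, was at 109, 122 and 116 CPM in control and at 127, 144 and 124 in Sev, a log2 fold change of 0.19 that did not pass (adjusted p = 0.121 by edgeR). Its paralog ATG9B had the only member rise past the study's threshold, a log2 fold change of 1.01 ± 0.36 (SE), on 11 to 46 counts a library, and its adjusted p of 0.0504 (edgeR) missed the limit. WIPI1 (−0.20), WDR45 (−0.01), ATG2A (−0.24) and ATG2B (−0.12) were not called, and the sign of WDR45 turned with DESeq2's size factors (0.01). With library size only, WIPI2 lost its call and ATG2A and ATG2B were called lower.

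In conjugation, ATG7 activates the ubiquitin-like proteins, ATG3 and ATG10 pass them on, the ATG12-ATG5-ATG16L1 complex acts as the ligase, and ATG4 proteases trim ATG8 proteins and take them off membranes again. Of these 11 genes, 1 was called higher and 3 lower. ATG16L2 (ENSG00000168010, chr11:72814308-72843674), a paralog of ATG16L1, was at 25.2, 21.3 and 21.0 CPM in control and at 8.65, 8.41 and 7.98 in Sev. The highest Sev library was far below the lowest control library, with a log2 fold change of −1.43 ± 0.12 (SE, adjusted p = 0.000175 by edgeR), which had the smallest adjusted p of the 41 genes. ATG16L1 itself was at 35.2, 36.4 and 37.2 CPM in control and at 35.5, 39.1 and 34.9 in Sev (log2 fold change 0.01, −0.14 with library size only).

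The 4 ATG4 proteases did not move together. ATG4C (ENSG00000125703, chr1:62784135-62865513) was at 8.46, 9.52 and 9.76 CPM in control and at 4.25, 3.46 and 4.06 in Sev, a log2 fold change of −1.24 ± 0.15 (SE, adjusted p = 0.000642 by edgeR). ATG4D was at 30.4, 32.8 and 34.4 CPM in control and at 39.5, 44.2 and 42.2 in Sev, a fold of 1.29 (adjusted p = 0.0139 by edgeR), and the call was lost without control 1 (adjusted p = 0.0514). ATG4B, the most active protease on LC3 proteins, was at 56.0, 53.0 and 51.0 CPM in control and at 46.9, 43.5 and 44.3 in Sev. Its groups did not overlap, its log2 fold change was −0.25 ± 0.08 (SE, adjusted p = 0.0403 by edgeR), and the call was lost when any of the 6 libraries was left out (adjusted p from 0.0716 to 0.0981). ATG4A (−0.32, adjusted p = 0.088 by edgeR) was not called.

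The central enzymes of conjugation were not called. ATG5 was at 34.3, 36.3 and 37.9 CPM in control and at 31.3, 30.8 and 41 in Sev, and ATG7 at 58.4, 56.9 and 56.9 in control and 51.2, 43.8 and 58.9 in Sev. In both genes Sev 3 stood above the control mean while Sev 1 and Sev 2 stood below every control library. The log2 fold changes were −0.07 for ATG5 and −0.16 for ATG7 (adjusted p = 0.669 and 0.281 by edgeR). ATG3, ATG10 and ATG12 had log2 fold changes of 0.25, −0.10 and 0.02, and that of ATG12 was −0.12 with library size only.

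ATG8 proteins are small and ubiquitin-like, and they coat the autophagosome and bind cargo receptors, and MAP1LC3B encodes the LC3 form most often measured as a marker of autophagosomes. Only GABARAPL2 (GATE-16) of these 5 genes was called. It was at 29.7, 29.1 and 29.8 CPM in control and at 25.9, 23.7 and 24.3 in Sev, with no overlap, a log2 fold change of −0.26 ± 0.09 (SE) and an adjusted p of 0.0407 (edgeR). Leaving out any of the 6 libraries ended the call (adjusted p from 0.0705 to 0.112). With DESeq2's size factors GABARAPL2 was not called and GABARAP was called higher instead, so no direction is given for the ATG8 genes as a group.

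MAP1LC3B varied more among control libraries than between groups. It was at 67.8, 130 and 60.2 CPM in control and at 96.6, 110 and 94.3 in Sev. Control 2 was higher than every Sev library and the other two control libraries were lower, with a log2 fold change of 0.22 ± 0.27 (SE, adjusted p = 0.533 by edgeR). Without control 2 the log2 fold change was 0.64 and the adjusted p 0.00665. GABARAP (0.23, adjusted p = 0.0547 by edgeR), GABARAPL1 (0.22, adjusted p = 0.112) and MAP1LC3A (−0.10, adjusted p = 0.684) were not called.

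**Figure D3:**
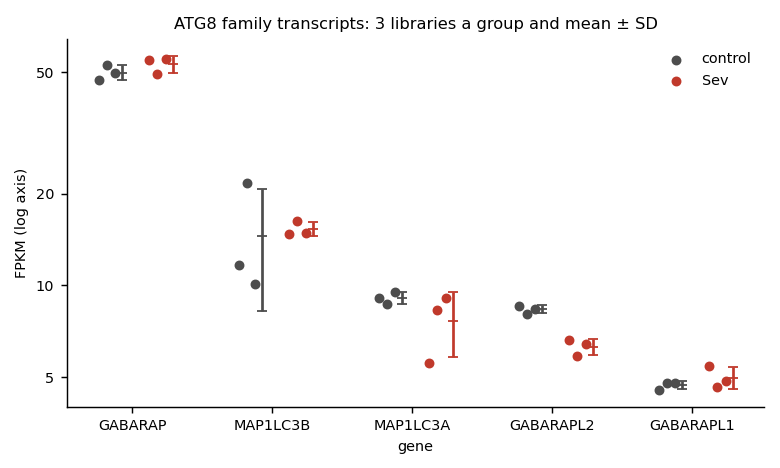
FPKM of the 5 ATG8 genes in each library (points) with the group mean and SD (n = 3), on a log axis. GABARAP is the highest in every library, the control points of MAP1LC3B are the most scattered, and only GABARAPL2 shows Sev wholly below control on this scale.

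GABARAP gave most of the ATG8 transcript per length in both groups. Of the summed FPKM of the 5 genes, GABARAP made up 57.8% on average in control and 60.8% in Sev, and MAP1LC3B 16.4% and 17.6%. MAP1LC3A made up 10.6% and 8.78%, GABARAPL2 9.72% and 7.20%, and GABARAPL1 5.47% and 5.71%. The share of GABARAPL2 ranged from 8.42% to 10.6% over the control libraries and from 6.95% to 7.57% over those of Sev, with no overlap.

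In fusion, STX17 is the SNARE protein of the closed autophagosome, SNAP29 bridges it to VAMP8 on the lysosome, and EPG5 tethers the membranes. Of these 4 genes, 1 was called higher and 2 lower, so that the SNARE partners STX17 and SNAP29 were called in opposite directions. STX17 (ENSG00000136874, chr9:99906633-99970341) was at 41.5, 22.8 and 24.6 CPM in control and at 11.3, 15.2 and 5.00 in Sev. The groups did not overlap and both were widely spread, with a log2 fold change of −1.50 ± 0.39 (SE, adjusted p = 0.0170 by edgeR). Without control 1 it was −1.19 and the adjusted p 0.0616, which ended the call.

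SNAP29 (ENSG00000099940, chr22:20858983-20891218) was at 16.1, 17.8 and 16.5 CPM in control and at 24.2, 27.9 and 28.0 in Sev. All Sev libraries lay above all control libraries, with a log2 fold change of 0.67 ± 0.11 (SE, adjusted p = 0.00204 by edgeR). Its promoter is shown because, of the 9 called members with a promoter stretch in the table used, it alone held any of the motifs searched (below). The stretch is chr22:20858757-20859056 on the plus strand of GRCh38.p14, from RefSeq, and it runs from upstream of RefSeq's own start of the gene, at 20859007, to 50 bases from there. That start differs from the gene's first base given above, which is GENCODE's. The capitals mark the E-box with its flanking base, CACGTGA, whose first base is at −184 from the RefSeq start.
SNAP29 promoter: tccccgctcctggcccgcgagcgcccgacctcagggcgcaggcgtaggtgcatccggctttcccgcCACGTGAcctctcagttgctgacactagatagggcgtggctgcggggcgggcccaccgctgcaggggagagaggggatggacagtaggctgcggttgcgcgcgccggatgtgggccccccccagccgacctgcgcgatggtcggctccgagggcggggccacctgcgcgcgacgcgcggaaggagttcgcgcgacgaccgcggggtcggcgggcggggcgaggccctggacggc
The other partners of the fusion step were lower or near the limit of detection. EPG5 was at 38.7, 37.7 and 38.4 CPM in control and at 28.6, 30.2 and 33.1 in Sev, a log2 fold change of −0.32 ± 0.09 (SE, adjusted p = 0.0230 by edgeR) that was lost without Sev 1, Sev 2, control 1 or control 3 (adjusted p up to 0.0959). VAMP8 had 6 to 14 counts a library, and a difference was not detectable at this depth (log2 fold change −0.20 ± 0.43, SE, adjusted p = 0.732 by edgeR).

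The calls were not equally firm. ULK2, ATG101, PIK3R4, WDR45B, ATG4C, ATG16L2 and SNAP29, or 7 of the 14, were called in the same direction in all 15 alternative fits, which include each library left out, other scalings, another count model and the FPKM values. No called member changed sign in any of them. An adjusted p over the limit does not show that a gene was at the same level in both groups. In bulk RNA, fewer cells that express a gene and less RNA of it per cell cannot be told apart, and this holds for every value here.

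Related genes of the same step were set against each other through the log2 ratio of their FPKM values within each library, where scaling between libraries cancels. The smallest p that a two-sided exact permutation test can give with 3 libraries a group is 0.1, so no ratio could pass 0.05. For 6 of the 10 pairs the groups did not overlap, beside 56.5% of all single features tested, in CPM. The permutation test gave these pairs that smallest p of 0.1 (0.167 after adjustment over the pairs). Among them only ATG9A over ATG9B held no called member, so these ratios are not independent of the gene calls. ATG16L1 over ATG16L2 moved most, from a mean ratio of 2.30 in control to 6.27 in Sev, a difference of 1.45 on the log2 scale. ULK1 over ULK2 went from 2.84 to 4.29, a log2 difference of 0.59, with ULK2 called lower and ULK1 not called. WDR45 over WDR45B went from 0.0858 to 0.0521, and WIPI1 over WIPI2 from 0.587 to 0.422, so that in both pairs the called and more abundant gene took a larger share. ATG9A over ATG9B went from 382 to 191 with ATG9B at very low counts, and GABARAPL2 over GABARAPL1 from 1.77 to 1.26. The groups overlapped for ATG2A over ATG2B (p = 0.4), MAP1LC3A over MAP1LC3B (p = 0.4), MAP1LC3B over GABARAPL2 (p = 0.3) and GABARAP over GABARAPL1 (p = 0.8), all by the exact permutation test.

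**Figure D4:**
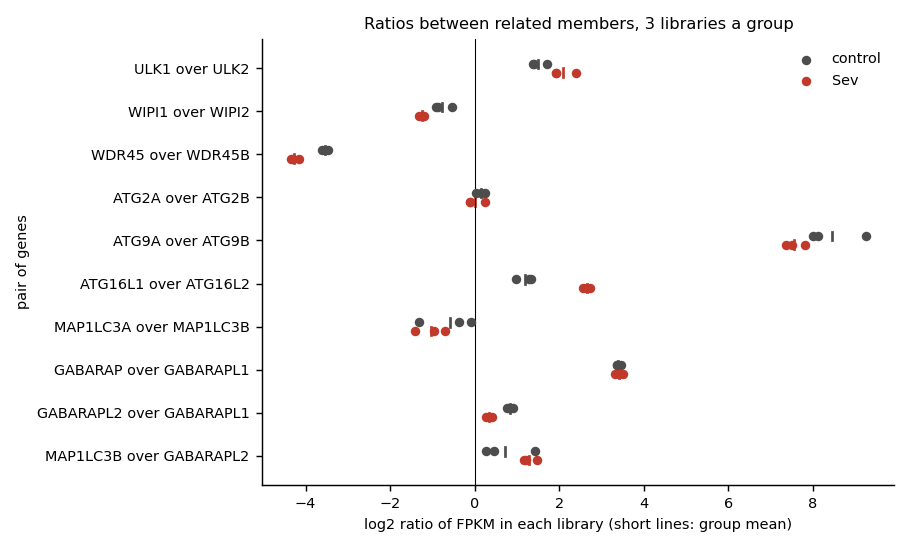
Log2 ratio of the FPKM of related genes in each library (points, 3 libraries a group), with short lines for the group means. ATG16L1 over ATG16L2 and WDR45 over WDR45B stand well apart between groups, GABARAP over GABARAPL1 is nearly the same in all 6 libraries, and control 2 is the outlying point for the MAP1LC3B ratios and for ATG9A over ATG9B.

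As a level, the members were common transcripts. The median of their mean FPKM over all libraries was 5.14, against 3.15 for all protein-coding genes tested, with 30 of the 41 above the latter and a range from 0.0888 (ATG9B) to 51.5 (GABARAP). Summed by step, the FPKM of the 5 initiation genes was 35.7 ± 2.35 in control and 40.6 ± 2.04 in Sev (SD, n = 3), and that of the 8 PI3P effector and lipid transfer genes 86.7 ± 0.880 and 102 ± 2.29. The sums of nucleation genes were 48.0 ± 1.18 and 41.3 ± 2.12, of conjugation genes 55.7 ± 0.225 and 48.9 ± 4.12, and of fusion genes 8.31 ± 1.07 and 6.95 ± 0.429. On FPKM sums the groups did not overlap in these 5 steps, with the smallest exact permutation p of 0.1. Single features did not overlap in CPM for 56.5% of all tested. Single genes carried some FPKM sums. Without WDR45B the other 7 PI3P effector and lipid transfer genes summed to 48.9 ± 0.772 in control and 46.5 ± 2.47 in Sev, with overlap. Without STX17 the other 3 fusion genes summed to 5.48 ± 0.0218 in control and 6.06 ± 0.511 in Sev. That fusion sum was higher in Sev, the reverse of the whole step, with no overlap. The ATG8 sum was 86.5 ± 8.16 in control and 87.3 ± 3.05 in Sev, with overlap (exact permutation p = 0.9). FPKM values carry no correction between libraries beyond their totals, and the separation was lost for nucleation and conjugation on sums of normalized CPM, where 3 of the 6 steps did not overlap. On that scale the log2 differences were 0.30 for initiation, 0.27 for PI3P effectors and −0.32 for fusion, without overlap, and −0.07 for nucleation, −0.11 for conjugation and 0.18 for ATG8 genes, with overlap. Single genes carried CPM sums too: without WDR45B the PI3P effector sum was 393 ± 1.68 in control and 408 ± 35.4 in Sev (SD, n = 3), with overlap. Without STX17 the fusion sum ranged from 55.0 to 55.7 over the control libraries and from 53.0 to 61.3 over those of Sev.

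The median spread within a group was close in Sev and control, while single members differed in both directions. The ratio of the highest to the lowest library of a group had a median of 1.16 over the members in Sev and 1.13 in control, and it was over 1.2 for 16 members in Sev and 9 in control. Sev 2 was the highest Sev library for 22 of the 41 members and Sev 3 the lowest for 17. Sev 3 was the highest Sev library for 11 members, namely ATG3, ATG4A, ATG5, ATG7, ATG10, ATG12, NRBF2, ULK2, MAP1LC3A, SNAP29 and EPG5. This spread is part of the error against which these genes were tested.

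**Figure D5:**
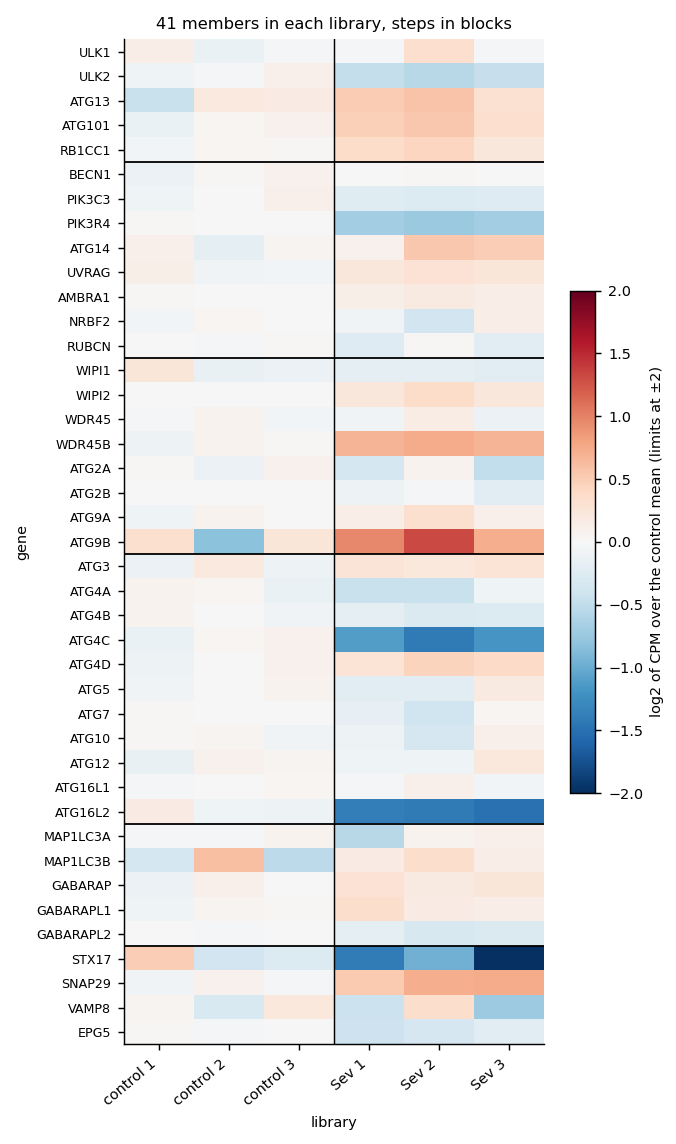
Log2 of each library's CPM over the gene's control mean for the 41 members (rows, steps separated by lines) and 6 libraries (columns), with the color limited to ±2. ATG16L2, ATG4C, STX17 and PIK3R4 are blue in all 3 Sev libraries, WDR45B and SNAP29 red in all 3, and ATG5, ATG7 and ATG12 are paler or red only in Sev 3.

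Promoter stretches of that same extent (RefSeq, GRCh38.p14) were found for 34 of the 41 members (not for RB1CC1, UVRAG, WDR45B, ATG4D, MAP1LC3A, STX17 and EPG5) and were searched on both strands for letters bound by stress and starvation factors. CACGTG, the E-box core of TFEB and related factors, was in those of 4 members (ATG3, ATG14, NRBF2 and SNAP29), and so was the longer TCACGTG that contains it. Some genes have several stretches in the table, and the 34 members had 40, of which 4 held these motifs. They were in 7.26% and 3.71% of all 35116 stretches. The cAMP response element TGACGTCA was in GABARAPL1 and NRBF2 (1.85% of all), the ATF4-type element TGATGCAA in none (0.866% of all), its form TGATGNAA with a free base in WDR45 (3.62% of all), and the FoxO element GTAAACA in WDR45 (3.42% of all). A match of letters is a description of these windows.

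Members known from the literature as targets of those factors were counted in the same fit, in which 22.1% of all features were called higher and 21.5% lower. Of 10 known as ATF4 or CHOP targets, GABARAPL2 was called lower and none higher by edgeR, with a median log2 fold change of 0.01, and GABARAP alone was higher at an unadjusted p under 0.05 (0.0245). Of 8 known as FoxO targets, ULK2 was called lower and none higher by edgeR, with a median log2 fold change of 0.06. By edgeR at an unadjusted p under 0.05, ATG14 was higher (0.0324) and PIK3C3 also lower (0.0246). Of 4 known as TFEB targets (UVRAG, WIPI1, MAP1LC3B and ATG9B), none was called by edgeR, with a median log2 fold change of 0.24. At an unadjusted p under 0.05 by edgeR, UVRAG (0.0364) and ATG9B (0.0221) would pass, both higher. The Wald test of DESeq2 called none of the members of these lists higher after adjustment. Other alternatives did: GABARAP and ATG9B were called higher with DESeq2's size factors, ATG9B with at least 10 counts in every library, ATG14 without Sev 1, and MAP1LC3B, ATG3 and GABARAP without control 2. PIK3C3 was called lower with library size only and with at least 10 counts in every library.

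Genes that act beside the core were read from the same fit, with the same 43.7% of all features as background. Of 17 other early factors, 15 were tested, with 4 called higher and 4 lower. MAP1LC3C and BECN2 did not pass the filter. SNX18, which remodels membrane for the growing autophagosome, had a log2 fold change of 1.03 ± 0.12 (SE, adjusted p = 0.000537 by edgeR), and MTMR3, a phosphatase that removes PI3P, one of 0.84 (adjusted p = 0.00206). PI4K2A, a lipid kinase that binds GABARAP, was higher at 0.58 (adjusted p = 0.00422). ZFYVE1 (DFCP1), which marks the PI3P-rich site where autophagosomes form, was lower at −0.80 ± 0.11 (SE, adjusted p = 0.00095).

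Of 15 other fusion factors, all were tested, with 5 called higher and 2 lower. YKT6, a SNARE protein that works in parallel with STX17, was at 130, 151 and 145 CPM in control and at 216, 226 and 231 in Sev, a log2 fold change of 0.66 ± 0.08 (SE, adjusted p = 0.000747 by edgeR). STX7, the lysosomal partner of YKT6, was at 68.3, 69.0 and 70.3 CPM in control and at 36.6, 43.6 and 40.9 in Sev, a log2 fold change of −0.78 ± 0.09 (SE, adjusted p = 0.000551 by edgeR). YKT6 was thus called higher and STX7 lower, while 22.1% of all features were called higher and 21.5% lower. VPS18, a subunit of the HOPS tether, and PLEKHM1, an adaptor between RAB7A, HOPS and ATG8 proteins, were higher at 0.54 and 0.63 (adjusted p = 0.00213 and 0.0025). How many of these other genes were called lower depended on the libraries: it was 9 over the 3 lists of other pathway genes with all 6 libraries, and 3 to 8 with a library left out.

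Some members share bases with other genes, which can move reads between them. On the same strand, 4 members overlap exons of another gene, and none of them was called. On the opposite strand 21 do, and the sources do not state whether the counting used the strand that the library kit marks. The opposite-strand neighbors of 2 called members were themselves called, in the other direction: THAP4 beside ATG4B had a log2 fold change of 0.87, and KRI1 beside ATG4D one of −0.63. Of the called members, none had a 100-base stretch of its exons that also occurs in another gene. ATG9A (29.4% of its stretches), GABARAP (24.8%), WDR45 (7.66%), NRBF2 (3.95%), MAP1LC3B (3.70%) and ATG12 (0.249%) did, and their values are uncertain to that extent.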

How the data were processed

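RNA was sequenced from U251 cells, 3 control libraries and 3 exposed to Sev for 2 h, grouped by their labels. By the study's methods, ribosomal RNA was removed and the paired-end libraries keep strand. Raw read counts for each gene and, in a separate table of the same features, FPKM values were deposited by the authors. Per the labels, the processing notes name bcl2fastq 2.19, featureCounts and the build hg18, with no role given for any of them, and the aligner, annotation and strand setting are not given in the sources used here. The FPKM values equal the counts divided by a single length per gene and a factor per library within 0.021 on the log2 scale, over 8621 genes with many counts, so they hold no independent measurement. Genes were matched by Ensembl identifier to GENCODE 29 on GRCh38, from which positions were taken.

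Counts were filtered with filterByExpr, scaled by TMM and tested with the quasi-likelihood test of edgeR 4.0.16 in R 4.3.3, with 2 groups and no covariate. Benjamini-Hochberg adjustment ran over all 27514 tested features, and called means an adjusted p under 0.05. SE is the absolute log2 fold change over the square root of the F statistic. CPM values are TMM-normalized, with no prior count. Library totals were 38624292 to 46318311 counts, and counting error and the spread between libraries were not separated member by member. VAMP8 and ATG9B had the fewest counts of the members. Ratios and sums used FPKM and exact permutation tests (scipy 1.17.1). The tests were checked on simulated data.

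The members, steps and other lists were chosen from general knowledge with earlier results of these data known. Members were named with every library's value if called or if they define a step. Of the other pathway lists, the 4 called genes with the smallest p were given with values. Uncalled genes beside them were chosen after their values were seen. RHEB and further called genes of mTORC1 were named without values. The alternatives took the Wald test of DESeq2 1.42.0, its size factors or library size alone as scaling, a minimum of 10 counts per library or no filter, a replicate block, 5 of the 6 libraries at a time, and limma 3.58.1 on FPKM values, as log2(FPKM + 1) and log2(FPKM + 0.1), where 3 libraries reached 0.5 FPKM (the former also unfiltered). The backgrounds of protein-coding genes were added after seeing the data.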

Additional observations from a re-analysis of the deposited data

How the results depend on the processing

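Of the 14 called members, 7 kept their call and direction in all 15 alternatives and none changed sign. ATG4B and GABARAPL2 kept theirs in 5 of 15, WIPI2 in 8, EPG5 in 10, ATG4D in 12, RB1CC1 in 13 and STX17 in 14. The cause of these losses was not tested. Of the members not called, 11 were called in some alternative. With the replicate number as a block, 5 members were called higher and 5 lower, and 4 of the other pathway genes lower, with 5228 and 5021 of all features. The numbers mark no known pairing: deviations of same-numbered libraries from their group means correlated at −0.00723, 0.00351 and 0.0270, and control 1 correlated best with Sev 2. Members called lower numbered 13 with library size only and 4 to 7 with a library left out, and members called higher 3 with log2(FPKM + 1) unfiltered. Members past the study's threshold in the higher direction numbered 0 with library size only, without a filter, with at least 10 counts in every library and with each FPKM setting, and 0 to 1 with a library left out. In the lower direction they numbered 1 with log2(FPKM + 1), filtered or not. The members' median log2 change was −0.15 with library size only, −0.12 with log2(FPKM + 1), filtered or not, and −0.16 with log2(FPKM + 0.1). Over all features, those past the threshold were 1691 higher and 2148 lower with at least 10 counts, 579 and 690 with log2(FPKM + 1), 579 and 691 without its filter, and 1476 higher with log2(FPKM + 0.1). Calls higher over all features were 3676 with log2(FPKM + 1) and 3623 with log2(FPKM + 0.1). Other pathway genes were called lower 3 to 8 times with a library left out, and higher 10 times with log2(FPKM + 1) unfiltered. As sums of normalized CPM, the log2 differences of step totals were 0.30 (initiation), −0.075 (nucleation), 0.27 (PI3P effectors) and 0.18 (ATG8 genes).

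Changes of sign were seen in 11 members that were not called. With library size only, ULK1 was −0.050, BECN1 −0.13, ATG12 −0.12 and ATG16L1 −0.14. With log2(FPKM + 0.1), ULK1 was −0.052, BECN1 −0.13, AMBRA1 −0.0014, ATG12 −0.12 and ATG16L1 −0.13, and with log2(FPKM + 1), filtered or not, −0.045, −0.12, −0.0013, −0.097 and −0.11. Without a filter, BECN1 was −0.0065 and ATG16L1 −0.0048, and with DESeq2's size factors WDR45 was 0.0071. With a library left out, ULK1 ran from −0.033 to 0.16, BECN1 from −0.056 to 0.043, NRBF2 from −0.22 to 0.033, WDR45 from −0.088 to 0.043, ATG5 from −0.22 to 0.0037, ATG10 from −0.21 to 0.0097, ATG12 from −0.083 to 0.074, ATG16L1 from −0.040 to 0.042, MAP1LC3A from −0.21 to 0.084 and VAMP8 from −0.56 to 0.0090. VAMP8, with at most 14 counts a library, and ATG9B, with at most 46, had the least depth of the members.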

Other observations

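The kinases that control autophagy from upstream were read from the same fit. Of 16 genes of the AMPK and mTORC1 pathways, all were tested, with 8 called higher and 3 lower by edgeR after Benjamini-Hochberg adjustment, against 43.7% of all features called. Of these 11 calls, 4 held in every alternative (PRKAA2, PRKAB2, PRKAG2 and RPTOR, below), and 7 were lost in at least 1. AMPK, the energy sensor that activates ULK1, is a trimer with alternative subunits, and these were called in both directions. PRKAA2, a catalytic subunit, was at 36.5, 38.8 and 40.5 CPM in control and at 23.5, 25.4 and 23.5 in Sev, a log2 fold change of −0.68 ± 0.09 (SE, adjusted p = 0.000972). Its paralog PRKAA1 was not called (−0.06, adjusted p = 0.511). The regulatory subunits PRKAB2, at 117, 117 and 124 CPM in control and 165, 170 and 169 in Sev (adjusted p = 0.00125), and PRKAG2, at 28.2, 43.7 and 37.3 CPM in control and 73.1, 69.1 and 66.9 in Sev (adjusted p = 0.00223), were higher with no overlap between the groups. PRKAG2 had a log2 fold change of 0.94 ± 0.15 (SE).

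Of mTORC1, the kinase complex that holds ULK1 inactive when nutrients are plentiful, the catalytic subunit MTOR was not called (log2 fold change −0.16, adjusted p = 0.117 by edgeR). RPTOR, its substrate-binding subunit, was at 79.4, 82.0 and 77.9 CPM in control and at 110, 121 and 102 in Sev, a log2 fold change of 0.48 ± 0.09 (SE, adjusted p = 0.00359 by edgeR). TSC1, TSC2 and TBC1D7, which together hold RHEB, an activator of the complex, inactive, were not called. RHEB itself was called, and so were MLST8, AKT1S1 and DEPTOR of the complex. Their calls were among the 7 lost in some alternative. The largest log2 fold change of the 16 upstream genes was 1.12. Of these genes, 1 passed the study's threshold, in the higher direction, against 11.4% of all features.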
